A study of Homo sapiens with 6 samples.

Results

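Very long genes were taken as the genes of the deposited table whose annotated span, end minus start, was at least 400000 bases and whose normalised count averaged 50 or more over the 6 libraries. Of 57820 gene rows, 565 had such a span, 519 of them had a read and 276 reached the mean. Genes whose names start with KIF, COL, PDE4 or LINC or hold -AS, and FARS2, FAF1 and RAD51B, were left out, which removed 5 and gave 271 genes. The choice used span and mean level, and no difference between treatments. The 271 genes are set beside 11803 shorter genes with the same minimum of 50, and beside 11621 of these weighted to the same mix of mean counts.

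The libraries came from U2OS, an established human osteosarcoma cell line. The 3 NMS-873 libraries were from cells given 5 µM NMS-873 in DMSO for 4 h, and the 3 DMSO libraries were from cells given 0.05% DMSO, the solvent, for the same time. NMS-873 inhibits VCP (p97), an ATPase that extracts ubiquitin-tagged proteins from their complexes. Polyadenylated RNA was sequenced, with ERCC spike-in RNA in every library. Separate cultures are not stated in the labels, so the p-values cover the spread between samples that may differ only technically.

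Long genes are almost entirely intron, and RNA polymerase II can need hours to cross one, so a finished transcript appears long after its promoter has fired. Keeping the polymerase on such a gene depends on elongation factors, on topoisomerases that relieve supercoiling and on the U1 particle, which masks early polyadenylation signals. Many long genes encode adhesion, synaptic and signalling proteins, and several lie in common fragile sites, where transcription and late replication meet.

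The libraries held between 21132311 and 22488952 reads in genes, of which the 271 genes took 1.108%, 1.125% and 1.111% in NMS-873 libraries and 1.156%, 1.122% and 1.086% in DMSO libraries. These shares overlap. FN1, SPARC, VIM and COL1A1, which mesenchymal and bone-forming cells express, had mean normalised counts of 42062 to 57572, and RUNX2, the bone transcription factor, had 173. COL1A2, also a bone matrix collagen, was near absent at 9.83. Of genes that mark other tissues, ALB, CD3E and HBB were at 0, PTPRC was at 10.5 and EPCAM at 75.4, and the neuronal genes SYP, SNAP25 and MAP2 were at 294, 225 and 106.

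The median annotated span of the 271 genes was 550 kb, from 400 kb for BMPR1B, a BMP receptor, to 2305 kb for CNTNAP2, a neurexin-like adhesion protein. They lie on many chromosomes, with 28 on chromosome 7 and 26 on chromosome 3. Their summed exons had a median length of 10.0 kb, against 4.64 kb in shorter genes of similar mean count, and exons made up 1.62% of the span, against 15.3%. Per length they were lower, with a median of 1.65 FPKM, against 3.77 FPKM in those shorter genes. GENCODE 29 gives 264 as protein coding and 6 as other types, and 1 had no entry.

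HDAC9 had the largest rise and BNC2 the second largest fall among the 271 genes, so their promoters are shown, each from 250 bases before to 50 after the RefSeq start (RefSeq, GRCh38.p14; HDAC9 at chr7:18495499-18495798, plus strand; BNC2 at chr9:16870621-16870920, minus strand). Capitals mark CpG, a C followed by a G.
HDAC9: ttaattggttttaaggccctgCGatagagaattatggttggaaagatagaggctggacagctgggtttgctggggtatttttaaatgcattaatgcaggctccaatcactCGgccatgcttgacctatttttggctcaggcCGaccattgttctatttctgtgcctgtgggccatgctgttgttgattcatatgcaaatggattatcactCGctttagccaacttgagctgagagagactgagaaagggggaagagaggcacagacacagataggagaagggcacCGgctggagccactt
BNC2: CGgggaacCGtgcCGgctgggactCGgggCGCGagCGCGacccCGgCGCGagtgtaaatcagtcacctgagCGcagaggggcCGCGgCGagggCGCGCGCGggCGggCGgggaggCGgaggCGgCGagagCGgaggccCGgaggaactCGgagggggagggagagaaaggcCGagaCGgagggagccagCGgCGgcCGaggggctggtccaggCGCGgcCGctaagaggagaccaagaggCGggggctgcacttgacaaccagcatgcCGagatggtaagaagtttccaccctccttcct
The HDAC9 window held 47.3% G+C and 5 CpG, and the BNC2 window 72.3% G+C and 37 CpG. By its coordinates the HDAC9 window lies inside the annotated span of the gene, not at its 5′ end. PCDH7, which had the largest fall, had 60.3% G+C and 16 CpG in its window, which is not shown. Over the 221 very long genes matched to a RefSeq promoter the medians were 66.0% G+C and 25 CpG, against 65.7% and 27 in 9328 shorter genes. The 25 matched genes that rose had a median of 29 CpG, the 51 that fell had 25 and the 145 that did not pass had 24. The lower quartile was 5 CpG in genes that rose and 16 in those that fell, and the upper quartile 34 and 35, so the ranges overlapped widely.

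Short motifs were counted on both strands of these windows. The AP-1 motif TGANTCA was in 4.07% of very long genes' promoters, against 4.50% in shorter genes and 7.76% of all 27305 promoters in the RefSeq table. It was in 4 of the 25 promoters of genes that rose and 0 of the 51 of genes that fell. The C/EBP-ATF motif TGATGNAA was in 4.07%, against 1.57% in shorter genes and 3.67% of all promoters, and the CRE TGACGTCA in 2.26%, against 3.45% and 1.98%. CCAAT was in 32.1%, against 36.7% and 35.7%, and TATAAA in 6.33%, against 5.05% and 11.95%. TATAAA was in 5 of the 25 promoters of genes that rose and 3 of the 51 of genes that fell. No motif contains another. The table gives 1 start per gene, and which start the cells used is not known from these data, so the counts are a description.

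Most very long genes changed little in 4 h. With NMS-873, 32 rose and 61 fell, at an adjusted p under 0.05 in limma with Benjamini-Hochberg adjustment over all 14889 genes tested, and 178 did not pass. That is 34.3% called, against 47.9% of all genes tested, 53.1% of the 11803 shorter genes and 52.5% of shorter genes of similar mean count. Of the very long genes 11.8% rose and 22.5% fell. Over all genes tested 14.9% rose and 33.0% fell, over the 11803 shorter genes 17.4% rose and 35.7% fell, and over those of similar mean count 15.8% rose and 36.7% fell. No test was made of the difference between long and short genes, since genes are not replicates.

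These calls are on the scale of the spike-in RNA, on which the median log2 fold change of all genes tested was −0.10. Scaled instead by the median ratio of the genes (gene-based scaling), that median was 0.00 and the split turned round, with 67 very long genes higher and 34 lower. Scaled to equal total reads in genes, the median of all genes tested was −0.10 and the split stayed, with 35 very long genes higher and 63 lower. On the gene-based scale 26.1% of shorter genes of similar mean count were higher and 23.3% lower. The share called changed less, at 37.3% of very long genes, against 49.5% of the shorter ones. Spike-in reads made up 0.382%, 0.372% and 0.367% of the reads in NMS-873 libraries and 0.375%, 0.386% and 0.359% in DMSO libraries. These shares overlap. In such bulk samples a change in cell number and a change in RNA per cell cannot be told apart. The cause of the −0.10 was not tested.

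The medians lay a small step apart. The median log2 fold change was −0.04 in very long genes, against −0.11 in shorter genes of similar mean count, a difference of 0.066. Within each library, the median deviation of very long genes minus that of shorter genes, unweighted, had an SD of 0.0187 between replicates. That SD is of single-library values and is not the error of the 0.066. Without DMSO replicate 3 the difference of medians was 0.044. Under gene-based scaling the medians were 0.06 and −0.00, and the difference kept its sign.

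**Figure D1:**
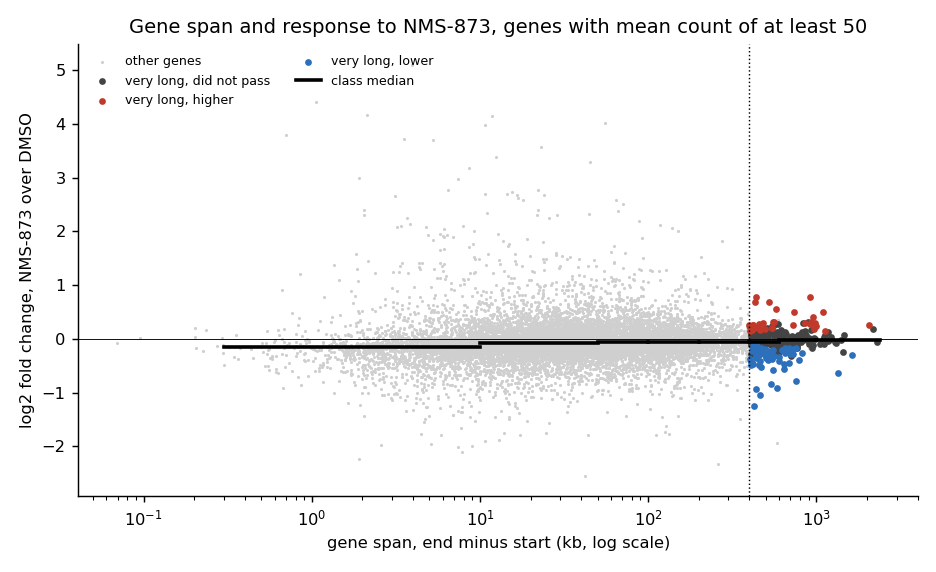
Annotated span (kb, log axis) against the log2 fold change of NMS-873 over DMSO for genes averaging 50 normalised counts or more. Grey points are other genes, dark, red and blue points are very long genes that did not pass, were higher or were lower, black lines are class medians and the dotted line is 400 kb. Very long genes lie between −1.26 and 0.78, and most of them sit near −0.04.

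The very long genes also moved by less. The median size of the log2 fold change was 0.13, against 0.20 in shorter genes of similar mean count. Of the 271 genes, 212 (78.2%) changed by less than 1.2-fold, against 61.8%. A change of 1.5-fold or more was seen in 11 genes (4.06%), against 11.4%. On the gene-based scale these shares were 4.80%, against 10.4%. A change of 2-fold or more was seen in 2 genes, PCDH7 and BNC2, both lower (0.738%, against 3.26%). The number was 4 without NMS-873 replicate 3, 3 without NMS-873 replicate 1 or DMSO replicate 2, and 1 under gene-based scaling. No very long gene reached a 2-fold rise, while 196 of the 11803 shorter genes did. A larger log2 fold change than that of HDAC9 was seen in 302 of these 11803. Among shorter genes of similar mean count that share was 2.53%.

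Libraries of the treatments did not overlap for 100 of the 271 genes (36.9%), against 53.6% of all genes tested and 58.5% of shorter genes with a mean of at least 50. NMS-873 libraries were all above in 34 and all below in 66. Over all genes tested they were all above in 16.4% and all below in 37.2%, and over the shorter genes in 18.9% and 39.6%. Of the genes called by limma, 10 had overlapping libraries. The authors' deposited table gave an adjusted p under 0.05 for 63 of the 271 genes (23.2%), and all 63 were called here too. Over the genes with an adjusted p in the authors' deposited table the share was 33.2%.

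Counting error differs with level, and the shares were therefore also taken by mean normalised count. Between 50 and 200, 20.7% of 92 very long genes were called, against 47.8% of shorter genes. Between 200 and 1000 it was 43.1% of 109, against 55.6%. At 1000 or more it was 38.6% of 70, against 53.3%. The share called was lower among very long genes in each of these ranges. The share past 1.5-fold was 2.17%, 2.75% and 8.57% over the same ranges, against 17.7%, 9.17% and 5.69% in shorter genes, so at the highest counts very long genes had the larger share.

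The share that fell showed a gradient with span over all genes averaging 50 or more. The share that fell was 45.4% of 2345 genes under 10 kb, 35.7% of 5154 at 10 to 50 kb, 31.6% of 2120 at 50 to 100 kb and 29.8% of 1524 at 100 to 200 kb. It was 28.0% of 660 at 200 to 400 kb, 26.5% of 166 at 400 to 600 kb, 18.4% of 87 at 600 to 1000 kb and 8.70% of the 23 at 1000 kb or more. The share that fell was thus lower in each longer class, and very long genes were at the end of a gradient that begins far below 400 kb. The median log2 fold changes did not fall into such steps. From the shortest class to the longest they were −0.153, −0.086, −0.058, −0.057, −0.063, −0.063, −0.016 and −0.023. These classes were not matched for mean count, whose median was 767 at 10 to 50 kb and 270 at 600 to 1000 kb. Under gene-based scaling the share lower was 30.1% under 10 kb, 16.4% at 200 to 400 kb, 15.7% at 400 to 600 kb, 8.05% at 600 to 1000 kb and 8.70% at 1000 kb or more. The share that rose was 12.4% under 10 kb, 20.0% at 50 to 100 kb and 12.1% at 200 to 400 kb, and it was 12.05%, 11.5% and 13.0% in the longest 3 classes. Under gene-based scaling the share higher was 19.4% under 10 kb, 36.4% at 100 to 200 kb, and 24.7%, 25.3% and 26.1% in the longest 3 classes. Across these 12079 genes Spearman's rho was 0.14 between span and log2 fold change and −0.12 between span and its size, and within the 271 genes it was 0.14 and −0.11. These correlations are across genes of the same libraries and are weak.

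**Figure D2:**
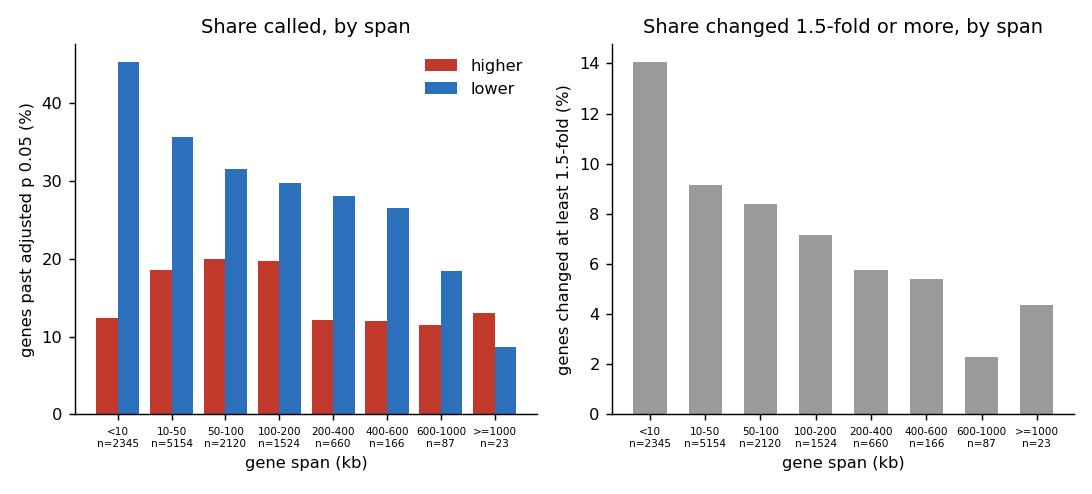
Share of genes (%) that rose and that fell with NMS-873, limma adjusted p under 0.05, and share that changed 1.5-fold or more, as bars by class of annotated span (kb, number of genes under each), with classes from 400 kb including the 5 genes left out by name. The share that fell is 45.4% under 10 kb and 8.70% at 1000 kb or more.

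An annotated span can be set by 1 rare transcript, so the spans of the transcripts themselves were taken from the basic set of GENCODE 29, by gene identifier. The median transcript span of a gene had a median of 435 kb over the 270 genes with a value. In 33 genes no basic transcript reached 400 kb, and in 7 none reached 100 kb. Of those 7, 6 were called, against 47.9% of all genes tested: PCDH7, EGLN3 and EIF2B5 fell and BACH1, FIP1L1 and AVL9 rose. SLC27A6, a fatty acid transporter, did not pass. The list was formed from transcript spans alone, after the fold changes were known.

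Over all genes tested 14.9% rose, 33.0% fell and 12.9% changed by 1.5-fold or more. By the median transcript span, 19 genes were under 100 kb, and 6 of them rose, 6 fell and 4 (21.1%) changed by 1.5-fold or more. Of these 19 genes 63.2% were called, against 47.9% of all genes tested and 53.1% of the 11803 shorter genes. Of 85 genes at 100 to 400 kb, 15 rose, 19 fell and 5 (5.88%) passed 1.5-fold. Of 166 genes at 400 kb or more, 11 rose, 36 fell and 2 (1.20%) passed 1.5-fold. The larger changes among very long genes were thus more frequent where the median transcript span was short. Spearman's rho between median transcript span and the size of the change was −0.18 over 270 genes. Genes that rose had a median transcript span of 338 kb, those that fell 424 kb and those that did not pass 446 kb, while their annotated spans were 548, 513 and 568 kb.

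**Figure D3:**
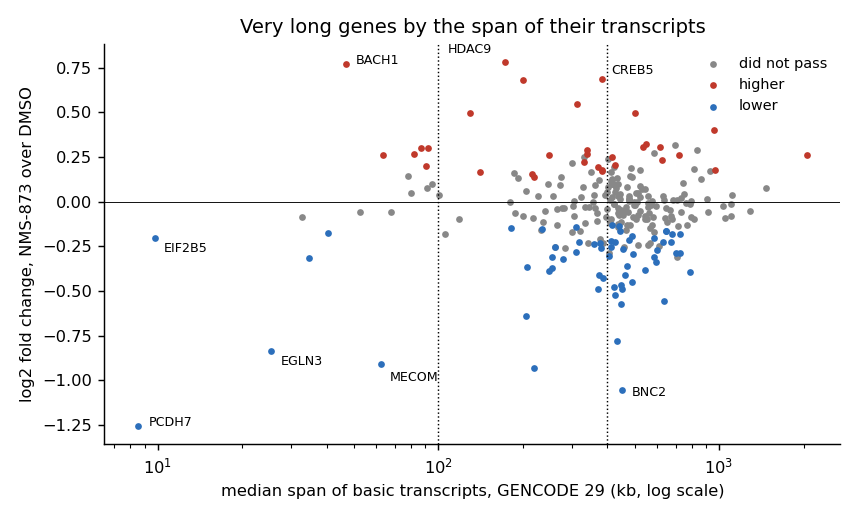
Median span of a gene's basic transcripts (kb, log axis) against its log2 fold change of NMS-873 over DMSO for 270 very long genes, coloured by limma call, with dotted lines at 100 and 400 kb. PCDH7 at 8.51 kb and BACH1 at 47.0 kb are among the largest changes, and 2 of the 166 genes at 400 kb or more passed 1.5-fold. Over all genes tested the share past 1.5-fold was 12.9%.

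HDAC9, a class IIa histone deacetylase that represses transcription (chr7:18126572-19042039, hg19, plus strand), had normalised counts of 1347, 1342 and 1556 in NMS-873 libraries and 835, 766 and 866 in DMSO libraries. All NMS-873 libraries were above all DMSO libraries. The means were 1415 ± 122 and 823 ± 51.1 (SD, n = 3 each), a 1.72-fold rise (limma log2 fold change 0.78, SE 0.0602, adjusted p = 3.34e-28). BACH1, a haem-binding repressor of antioxidant genes (chr21:30566392-31003071, plus strand), had 3242, 3307 and 3478 in NMS-873 libraries and 2044, 1838 and 1989 in DMSO libraries. These did not overlap either, and the rise was 1.71-fold (limma log2 fold change 0.77, SE 0.0544, adjusted p = 2.04e-32). The longest basic BACH1 transcript spans 47.3 kb, and another tested gene overlaps the annotated span on the same strand.

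CREB5, a cAMP response element binding factor (chr7:28338940-28865511, plus strand), had 3908, 4047 and 4053 in NMS-873 libraries and 2548, 2388 and 2529 in DMSO libraries. The treatments were well apart, at 1.61-fold (limma adjusted p = 1.57e-27). DLC1, a GTPase-activating protein that switches off RHOA (chr8:12940870-13373167, minus strand), had 2989, 3298 and 3240.1 in NMS-873 libraries and 1967, 1954 and 2027 in DMSO libraries. It too was higher in every NMS-873 library, by 1.60-fold (limma adjusted p = 1.24e-26). The medians of transcript span for HDAC9, CREB5 and DLC1 were 173, 384 and 201 kb, so these 3 lie below the median of the very long genes.

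Smaller rises followed. MAST4, a microtubule-associated kinase, averaged 481 ± 6.02 in NMS-873 libraries and 329 ± 13.6 in DMSO libraries, 1.46-fold. RORA, a nuclear receptor of the circadian clock, was 1.41-fold higher, and CDH18, a cadherin spanning 1103 kb, also 1.41-fold. PTPRK, a receptor tyrosine phosphatase, rose 1.25-fold, SCAPER, a protein that binds cyclin A, 1.24-fold and CTNND2, delta-catenin, 1.23-fold. For each of these 6 the libraries of the treatments did not overlap, and for the first 5 the limma adjusted p lay between 7.33e-11 (MAST4) and 7.23e-04 (SCAPER). The CTNND2 call (limma adjusted p = 0.0283) was lost without NMS-873 replicate 2, NMS-873 replicate 3, DMSO replicate 1 or DMSO replicate 3, at adjusted p = 0.159, 0.0618, 0.100 and 0.0577.

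PCDH7, a protocadherin (chr4:30722037-31148422, plus strand), had the largest fall. Its normalised counts were 634, 608 and 710.5 in NMS-873 libraries and 1594, 1483 and 1579 in DMSO libraries. All NMS-873 libraries lay far below all DMSO libraries. The means were 651 ± 53.4 and 1552 ± 60.0 (SD, n = 3 each), 2.39-fold lower (limma log2 fold change −1.26, SE 0.0606, adjusted p = 2.37e-54). Its median transcript span is 8.51 kb.

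BNC2, a zinc finger protein of the basonuclin family (chr9:16409501-16870841, minus strand), had 420.0, 417 and 412 in NMS-873 libraries and 909, 852 and 839 in DMSO libraries. The NMS-873 libraries were close together and far below. The fall was 2.08-fold (limma log2 fold change −1.06, SE 0.0674, adjusted p = 2.39e-37). Unlike PCDH7, its transcripts are long, with a median span of 452 kb.

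MECOM, the zinc finger transcription factor EVI1 (chr3:168801287-169381406, minus strand), had 166, 214 and 199.6 in NMS-873 libraries and 376, 333 and 381 in DMSO libraries. No library overlapped, and the fall was 1.88-fold (limma adjusted p = 1.02e-19). MAML3, a coactivator of Notch, had 47.1, 28.4 and 50.7 in NMS-873 libraries and 81.2, 69.4 and 86.3 in DMSO libraries, 1.91-fold lower (limma adjusted p = 3.86e-07). EGLN3, a prolyl hydroxylase that marks HIF proteins for destruction, had 64.2, 57.8 and 87.9 in NMS-873 libraries and 125, 114 and 132 in DMSO libraries, 1.78-fold lower (limma adjusted p = 1.45e-08). MAML3 and EGLN3 had low counts, yet the treatments were separate in both.

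LRRC4C, a netrin-G ligand of synapses whose annotated span is 1346 kb (chr11:40135753-41481323, minus strand), had 786, 824 and 835 in NMS-873 libraries and 1263, 1184 and 1365 in DMSO libraries. It was lower in all NMS-873 libraries, by 1.56-fold (limma adjusted p = 1.82e-20). RIMS2, which readies synaptic vesicles for release, was 1.72-fold lower, SORCS2, a sortilin-family receptor, 1.49-fold, SLIT3, a ligand of ROBO receptors, 1.47-fold and BTBD9, a BTB-domain protein, 1.44-fold. All 4 were separate between treatments, with limma adjusted p between 7.25e-16 (RIMS2) and 7.86e-05 (SORCS2). RPTOR, the mTORC1 subunit raptor, named after its values were seen, averaged 1418 ± 47.7 in NMS-873 libraries and 1972 ± 77.4 in DMSO libraries, 1.39-fold lower (limma adjusted p = 2.94e-14).

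**Figure D4:**
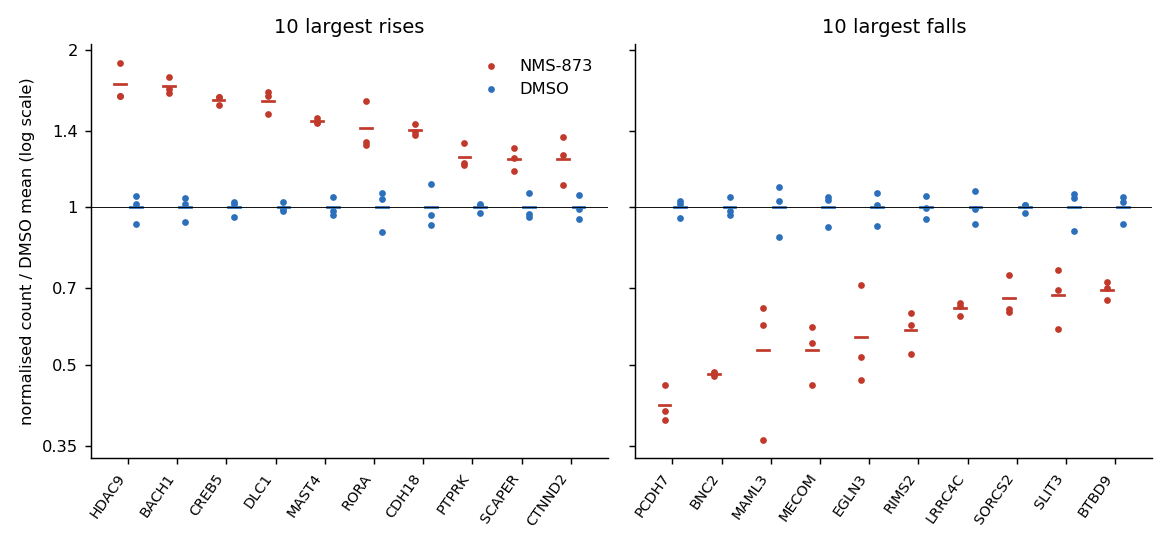
Normalised count of each library divided by the gene's DMSO mean (log axis) for the 10 largest rises and 10 largest falls among very long genes. Red points are the 3 NMS-873 libraries and blue points the 3 DMSO libraries, with a line at each mean. The treatments do not overlap in any of these genes, from PCDH7 (2.39-fold lower) to HDAC9 (1.72-fold higher).

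The genes of largest span were mostly without a call. CNTNAP2 (2305 kb) had 125, 106 and 125 in NMS-873 libraries and 120.3, 127 and 121 in DMSO libraries. DLG2 (2173 kb), a scaffold of the postsynaptic density, had 81.2, 71.5 and 66.2 in NMS-873 libraries and 68.9, 72.3 and 52.6 in DMSO libraries. The libraries overlapped in both, and neither passed (limma adjusted p = 0.731 and 0.326). CSMD1 (2060 kb), a complement regulator, had 647, 621 and 652 in NMS-873 libraries and 528, 518 and 553 in DMSO libraries. It was the exception on the higher side, 1.20-fold with no overlap (limma adjusted p = 5.24e-04).

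NRXN3 (1622 kb), a presynaptic neurexin, had 324, 314 and 323 in NMS-873 libraries and 416, 383 and 391 in DMSO libraries, 1.24-fold lower with no overlap (limma adjusted p = 4.49e-04). MAGI2 (1436 kb), a membrane scaffold, did not pass, with a log2 fold change of −0.25 (limma adjusted p = 0.185). Of the 23 genes over 1000 kb, 3 rose and 2 fell.

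Among the genes of highest count the levels were close between treatments. TENM2, a teneurin adhesion protein, had 14743, 13857 and 13548 in NMS-873 libraries and 15154, 13934 and 13242 in DMSO libraries. Its libraries interleave, with a log2 fold change of −0.00 (SE 0.0593). EDIL3, an integrin ligand of the matrix, averaged 64.4 ± 2.87 FPKM in NMS-873 libraries and 63.7 ± 3.26 FPKM in DMSO libraries, and did not pass (limma adjusted p = 0.832). Under gene-based scaling it passed at 0.12 (adjusted p = 0.0168). PCLO, a presynaptic scaffold, PALLD, an actin-binding protein, and TENM3 did not pass either, with log2 fold changes of −0.08, −0.04 and −0.03. DST, a linker of cytoskeletal filaments, averaged 6090.2 ± 488 in NMS-873 libraries and 5376 ± 389 in DMSO libraries and passed at 0.18 (limma adjusted p = 0.00404), with overlapping libraries. That call was lost without NMS-873 replicate 2 or DMSO replicate 3, at adjusted p = 0.117 and 0.0672. It was also lost when limma was run without an intensity trend (adjusted p = 0.143).

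By role, the genes were grouped into 6 lists that overlap in part, and 126 genes were in no list. Over all genes tested 47.9% were called, 14.9% higher and 33.0% lower, and the counts of each list stand against these shares. The transcription and chromatin regulators held the most calls, with 6 of 28 higher, 11 lower and 11 not passed. Their median was −0.03 and their range −1.06 to 0.78. These counts include the RNA-binding proteins RBFOX3, which fell, RBMS3, which rose, and MSI2, which did not pass. HDAC9 and CREB5 rose and BNC2, MECOM and MAML3 fell. CAMTA1, a calmodulin-binding activator, rose by 0.30 on the log2 scale, and NFIA, a nuclear factor I protein, fell by 0.41 on the log2 scale (limma adjusted p = 3.39e-05 and 3.68e-04), both named after their values were seen. RUNX1 did not pass, at 0.04 (adjusted p = 0.601), but did under gene-based scaling, at 0.14.

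In the list of membrane traffic, ubiquitin and other housekeeping genes, 1 of 33 rose, 12 fell and 20 did not pass, with a median of −0.09, a share lower near the 33.0% of all genes tested. ERC1, an active zone and vesicle scaffold, averaged 2601 ± 131 in NMS-873 libraries and 3338 ± 127 in DMSO libraries (limma adjusted p = 1.68e-09), and RIMS2 and BTBD9 also fell. ERC2, the paralogue of ERC1, was the riser, at 0.40 (adjusted p = 0.00875) with overlapping libraries, a call lost without NMS-873 replicate 1 or DMSO replicate 2 (adjusted p = 0.106 and 0.0936). The ERC2 call was also lost when limma was run without an intensity trend (adjusted p = 0.0782). ERC2 was named after its values were seen.

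Kinases, phosphatases and small GTPase regulators gave 4 higher, 7 lower and 28 not passed of 39, with a median of −0.06. MAST4 and PTPRK rose, and ROR1, a WNT5A receptor, had 89.2, 94.0 and 84.8 in NMS-873 libraries and 120.3, 125 and 133 in DMSO libraries, 1.41-fold lower (limma adjusted p = 3.95e-04). PRKCA, protein kinase C alpha, named after its values were seen, averaged 3969 ± 246 in NMS-873 libraries and 3837 ± 88.1 in DMSO libraries and did not pass (adjusted p = 0.492), though it did under gene-based scaling, at 0.15.

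Adhesion, axon guidance and matrix genes gave 5 higher, 5 lower and 24 not passed of 34, with a median of −0.02. CDH18 and PTPRK rose and PCDH7, SLIT3 and NRXN3 fell. TENM4 fell 1.31-fold (limma adjusted p = 0.00122), while TENM2 and TENM3 did not pass. ROBO1, a receptor of SLIT proteins with a span of 1171 kb, had 1717, 1723 and 1793 in NMS-873 libraries and 1854, 1732 and 1703 in DMSO libraries, which overlap. TENM4 and ROBO1 were named after their values were seen.

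Cytoskeletal and dystrophin family genes gave 3 higher, 1 lower and 10 not passed of 14, with a median of −0.02. MAST4 and DST were among the 3, and FRMD4A, a cell polarity protein, fell 1.20-fold (limma adjusted p = 4.60e-04). Genes of common fragile sites gave 1 higher, 2 lower and 14 not passed of 17, with a median of −0.05. BTBD9 fell. LARGE, a glycosyltransferase of dystroglycan, had 868, 922 and 933 in NMS-873 libraries and 1045, 983 and 1023 in DMSO libraries (limma adjusted p = 0.0180). That call was lost under gene-based scaling, at −0.06, and without NMS-873 replicate 1 or DMSO replicate 1 (adjusted p = 0.0699 and 0.103 in limma). SDK1, a sidekick adhesion protein, was the riser at 0.18 (adjusted p = 0.00476), lost without NMS-873 replicate 3 (adjusted p = 0.0702). In limma without an intensity trend the calls of LARGE and SDK1 were lost too (adjusted p = 0.0593 and 0.0624). WWOX, a tumour suppressor at the FRA16D site, named after its values were seen, averaged 185 ± 11.1 in NMS-873 libraries and 198 ± 17.4 in DMSO libraries and did not pass (adjusted p = 0.428). Over all genes tested the median was −0.10, below that of each list.

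**Figure D5:**
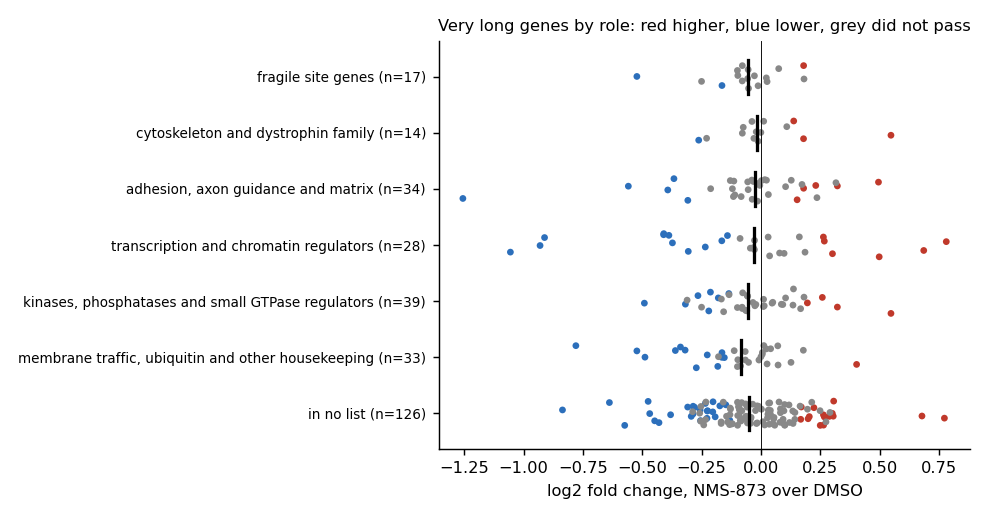
Log2 fold change of NMS-873 over DMSO of the very long genes in each role list, 1 point per gene, red higher, blue lower and grey not passed in limma, with a black line at each median. Transcription and chromatin regulators run from −1.06 to 0.78, and genes of fragile sites from −0.52 to 0.18.

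Factors that long genes depend on were read from lists of their own, beside 14.9% of all genes tested that rose and 33.0% that fell. Of 48 elongation genes tested, 8 rose, 15 fell and 25 did not pass, with a median of −0.08, close to those shares. ELL2, a subunit of the super elongation complex, averaged 4068 ± 255 in NMS-873 libraries and 1823 ± 118 in DMSO libraries, 2.23-fold higher (limma adjusted p = 5.31e-56). CCNT2, a cyclin of the kinase P-TEFb, rose 1.48-fold, and HEXIM1, the inhibitor of P-TEFb, averaged 576 ± 39.1 in NMS-873 libraries and 1112 ± 47.1 in DMSO libraries, 1.93-fold lower (adjusted p = 4.38e-35). POLR2A, the large subunit of RNA polymerase II, named after its values were seen, averaged 2186 ± 46.8 in NMS-873 libraries and 2854 ± 42.3 in DMSO libraries (adjusted p = 1.32e-10). Under gene-based scaling 18 of the list were higher and 7 lower.

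Of 26 genes of 3′ end formation and the U1 particle, 5 rose, 10 fell and 11 did not pass, with a median of −0.11, against a called share of 47.9% over all genes tested. Under gene-based scaling 7 were higher and 7 lower. PCF11, which couples 3′ end cleavage to termination, averaged 426 ± 10.9 in NMS-873 libraries and 902 ± 49.2 in DMSO libraries, 2.11-fold lower (limma adjusted p = 6.05e-39). CSTF1 and CSTF2T, of the cleavage stimulation factor, were 1.47-fold and 1.44-fold lower. FIP1L1, a subunit of the polyadenylation complex and itself among the 271 genes, had 1658, 1718 and 1714 in NMS-873 libraries and 1380.1, 1363 and 1489 in DMSO libraries, 1.20-fold higher with no overlap (adjusted p = 2.02e-05). Its annotated span is 918 kb, but its transcripts span 82.0 kb.

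Of 8 genes of DNA topoisomerases and of TDP1 and TDP2, the phosphodiesterases that free trapped topoisomerases, 0 rose, 5 fell and 3 did not pass, with a median of −0.15, against 33.0% lower over all genes tested. Those that fell were TDP1, named after its values were seen, TDP2, TOP2A, TOP3B and TOP2B. TOP2A averaged 12058 ± 666 in NMS-873 libraries and 15770.0 ± 314 in DMSO libraries, 1.31-fold lower (limma adjusted p = 2.51e-09), and TDP2 and TOP3B were 1.17-fold and 1.15-fold lower, calls lost under gene-based scaling (adjusted p = 0.0500 and 0.119). TOP1, named after its values were seen, averaged 4251 ± 147 in NMS-873 libraries and 3920.1 ± 211 in DMSO libraries and did not pass (adjusted p = 0.0608), but did under gene-based scaling, at 0.22. TOP2B, also so named, passed at −0.14 (adjusted p = 0.0195) and did not under gene-based scaling, at −0.04. The TOP2B call was also lost without NMS-873 replicate 1, NMS-873 replicate 2, DMSO replicate 1 or DMSO replicate 3 (limma adjusted p = 0.108, 0.0605, 0.0672 and 0.0686). Leaving out the same libraries took the TDP1 call (adjusted p = 0.0431) to 0.0737, 0.134, 0.0838 and 0.180, and gene-based scaling to 0.402. In limma without an intensity trend TDP2, TOP2B and TDP1 did not pass (adjusted p = 0.0558, 0.109 and 0.0650). Under gene-based scaling 2 of the 8 were higher and 1 lower, and with equal totals 1 was higher and 5 lower.

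Some annotated spans overlap those of other tested genes, and whether exons overlap was not examined. Another tested gene overlapped 69 of the 271 genes, on the same strand in 19. EIF2B5, a subunit of the exchange factor eIF2B, is annotated over 550 kb but its transcripts span 9.76 kb, and 15 tested genes lie in its annotated span, 11 of them on its strand. It averaged 1941 ± 102 in NMS-873 libraries and 2231 ± 25.5 in DMSO libraries, 1.15-fold lower (limma adjusted p = 0.00103). AVL9, a membrane traffic protein, rose 1.15-fold (adjusted p = 0.00142), and 7 tested genes overlap it, 3 on its strand. No source used here says whether the counting was stranded, so reads of overlapping genes may not be told apart.

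Genes beside the thresholds were as follows. Just inside the span minimum lay BMPR1B, at 0.26 (limma adjusted p = 0.0109; 0.0607 without NMS-873 replicate 1), and TRPS1, a GATA-type repressor, at −0.37. Just outside lay HECW2 at 0.01 and TNIK at −0.22 (−0.12 under gene-based scaling, not passed). Just inside the mean minimum lay SLC27A6 at a mean normalised count of 50.1 and CACNA1A at 50.3, and just outside MARCH1 at 48.8 and MID1 at 48.6. Of the 5 genes left out by name, PDE4B, a cAMP phosphodiesterase, had 24.1, 15.7 and 24.8 in NMS-873 libraries and 78.2, 93.2 and 80.4 in DMSO libraries. Its log2 fold change of −1.94 was beyond that of any of the 271 genes. LINC00669, RAD51B, FARS2 and FAF1 were at 0.34, −0.18, −0.14 and 0.01.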

How the data were processed

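Polyadenylated RNA of 3 NMS-873 and 3 DMSO libraries was grouped by sample title. The deposited table holds FPKM per library, as its values show, and, per the file headers, a mean normalised count per gene (a signal scaled to library size), and the authors' log2 fold change and adjusted p-value. The submitters' processing notes name hg19, featureCounts 1.5.1 and DESeq2 1.16.1, with no aligner or strand setting. That the FPKM were scaled by ERCC spike-in size factors was found from the values.

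Normalised counts were rebuilt as FPKM times mean normalised count over mean FPKM. Times the size factor, 100% were within 0.001 of whole reads. The design assumed normalised counts. Genes with a mean of at least 10 (14889) entered limma 3.58.1 (R 4.3.3) as log2 of normalised count + 1, which understates changes of low genes, with an intensity trend, two-sided, Benjamini-Hochberg adjusted, at 0.05. The test was also run on simulated data with independent libraries, where every gene had the same spread beyond counting error. Because of that setting, the run does not check the calls made on these data. The prior of limma had 251 degrees of freedom. Its SE and p-values thus rest mostly on the spread shared by genes of similar level, and little on each gene's own replicates. Without molecular identifiers, counting error understates the error. Shorter genes were weighted by deciles of the long genes' mean count. Alternatives were gene-based, TMM and equal-total scaling, pseudocounts of 0.5 and 8, other count and span minimums, voom on rebuilt reads, no trend, a replicate block and leaving out each library.

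The members, role lists and tests were chosen with earlier results of these data known. Named were the 10 largest rises and falls that passed without overlap, the 6 longest and 6 highest genes, up to 3 per list by adjusted p, 2 on each side of each threshold, and the genes left out by name; not every gene this rule selects is reported here. Gene types and transcript spans came from GENCODE 29 by identifier (270 of 271), promoters from RefSeq by symbol (221 of 271), and coordinates are hg19 as deposited unless GRCh38.p14 is named.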

Additional observations from a re-analysis of the deposited data

How the results depend on the processing

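The split of very long genes into higher and lower depended on the scaling. Against 32 higher and 61 lower, gene-based factors gave 67 and 34, with medians of 0.0624 in very long genes and −0.00348 in shorter genes of similar mean count. TMM factors gave 67 and 34, with medians of 0.0596 and −0.00628. Equal totals gave 35 and 63. Without the intensity trend 23 were higher and 47 lower, so that 25.8% were called, against 40.9% of shorter genes of similar mean count. The difference of medians (0.066) kept its sign under every alternative. With a span of at least 300000 the counts were 53 and 112, and with at least 600000 they were 13 and 18, where the set itself changes, with a difference of 0.095. Keeping only the 251 genes with a median transcript span of at least 100 kb, an alternative chosen after seeing the data, gave 26 and 55. Leaving out each library gave 26 to 35 higher and 45 to 64 lower, and a difference of 0.044 (without DMSO replicate 3) to 0.083.

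In the elongation list (8 higher, 15 lower), gene-based factors gave 18 and 7 and TMM 17 and 7. In the 3′ end and U1 list 5 were higher and 10 lower, 7 and 7 with gene-based or TMM factors, and 6 lower without the intensity trend. In the topoisomerase and TDP list (0 higher, 5 lower), gene-based factors gave 2 and 1, TMM 2 and 2, equal totals 1 and 5, and no trend 2 lower. Leaving out libraries gave 0 to 1 higher and 3 to 5 lower. The causes were not tested.

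Deviations of same-numbered libraries correlated weakly, at 0.039, −0.025 and 0.042, against −0.072 to 0.035 between differently numbered ones. With so few libraries this cannot decide whether the samples were paired. With a replicate block 51.1% of all genes tested were called, against 47.9% without. A replicate block gave 35 very long genes higher and 62 lower and 1 topoisomerase gene higher. Over 75 named genes and 1198 values under alternatives, limma gave 0 changed directions, 43 calls were lost and 17 gained. Depth limits the low genes: the SE of the log2 fold change was 0.172 for SLC27A6, near the minimum of 50, and 0.0593 for TENM2, at the highest count.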
